A study of Mus musculus with 9 samples.

Results

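The collagen genes are the genes of the collagen alpha chains, taken here as the rows of the deposited table whose symbol is Col, a type number, a and a chain number. The table held 44 such genes among 24493. They were read in mouse pancreatic tumor cells, clone 6419c5 on the C57BL/6 background, that the labels call late stage and that grew as subcutaneous implants. RNA-seq of polyadenylated RNA covered 9 samples: 3 samples with the Usp22 knockout labelled Usp22-KOA, 3 with the knockout labelled Usp22-KOB, and 3 wild type (WT). What A and B stand for, the age of the mice, any treatment and the way tumor cells were parted from the other cells of the tumor are not stated in the labels. All 9 samples stem from a single clone, and nothing says that the samples of a group came from separate mice, so the p-values rest on a spread that may be technical.

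Collagens are secreted or membrane proteins in which alpha chains wind around each other into a rod of repeated glycine-containing units. The chains are hydroxylated and folded in the endoplasmic reticulum, trimmed of their propeptides outside the cell and crosslinked into fibrils, filaments or sheets. Collagens I, III and V build the fibrils of stroma, collagen IV the sheet of the basement membrane and collagen VI beaded filaments around cells. In pancreatic tumors most fibrillar collagen is known to come from fibroblasts, while basement membrane collagens are also made by epithelial and endothelial cells.

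Levels are in TPM, transcripts in 1000000, which are scaled by transcript length, so levels of different genes can be set side by side. Such values hold no trace of sequencing depth, so depth is unknown and the precision of a level rests on the 3 samples of its group. Differences are of log2(TPM + 1), with their SE, on a scale that understates the change of low genes, and were tested by limma over the 13843 genes that reached a mean of 1 TPM over the 9 samples. A call means a Benjamini-Hochberg adjusted p under 0.05 over all these genes. Of the 44 collagen genes, 21 were tested and 23 were not.

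Usp22, the gene targeted in both knockouts, stood at 9.77, 8.46 and 10.1 TPM in Usp22-KOA, at 11.8, 14.9 and 14.1 TPM in Usp22-KOB and at 55.1, 54.5 and 56.4 TPM in WT, so each library followed its label. The keratin genes Krt8, Krt18 and Krt19, markers of epithelial cells such as those of pancreatic tumors, ranged from 866 TPM (Krt18 in Usp22-KOA 3) to 3001 TPM (Krt8 in Usp22-KOB 3). In Usp22-KOA Krt18 was lower and Krt19 higher than in WT (limma adjusted p = 8.0e-06 and 0.00247), and Krt8 did not pass. Of the other tested epithelial markers, all but Cdh1 were lower in both knockouts. Epcam, an adhesion protein named after its values were seen, averaged 37.7 ± 15.2 TPM in Usp22-KOA, 31.3 ± 5.31 TPM in Usp22-KOB and 379 ± 18.4 TPM in WT. Cdh1, also named after its values were seen, was lower in Usp22-KOA and did not pass in Usp22-KOB (limma adjusted p = 5.9e-04 and 0.0999). The 9 libraries listed between 6520 and 7234 genes at 0. For several fibrillar collagens 1 WT library, WT 3, stood above the other WT libraries, and 1 Usp22-KOA library, Usp22-KOA 3, stood below its own group for Col6a1 and Col6a2. The values below are given per library for this reason.

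In Usp22-KOA most of the tested collagens were lower than in WT. Of the 21, 14 fell, 4 rose and 3 did not pass, against 56.3% of all tested genes called in this comparison, 26.9% lower and 29.4% higher. The median log2 difference of the 21 was -1.65, against 0.019 over all tested genes. Col12a1, Col14a1 and Col7a1 had a mean under 1 TPM in Usp22-KOA and were tested only because their levels in the other groups were higher, so the count is of genes that passed the filter and is no count over all collagens. The falls were in the fibrillar, fibril-associated, short-chain, anchoring and multiplexin classes and in 1 chain of collagen VI. The rises were Col4a1, Col4a2, Col6a1 and Col6a2. In bulk RNA, fewer cells of a type and less RNA per cell cannot be told apart.

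In Usp22-KOB 6 of the 21 rose, 1 fell and 14 did not pass against WT. That is 33.3% of the tested collagens, near the 37.1% called over all tested genes (18.7% higher and 18.4% lower), so the number of calls does not set the collagens apart. The median log2 difference of the 21 was 0.42, against -0.0075 over all tested genes. The count moved with single libraries, from 2 rises without WT 1, without WT 2, without Usp22-KOB 1 or without Usp22-KOB 2 to 11 rises without WT 3. Set directly against Usp22-KOB, Usp22-KOA had 14 of the 21 lower and 1 higher, with 51.7% of all tested genes called (24.2% lower and 27.5% higher) and a median of -1.80 against 0.027. For the mean of both knockouts against WT 13 were lower and 4 higher, beside 50.0% over all tested genes (24.1% lower and 25.9% higher). That mean joins knockouts that differ from each other: taking all 6 knockout samples together, with their difference as spread, 1 was lower and 2 were higher.

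**Figure D1:**
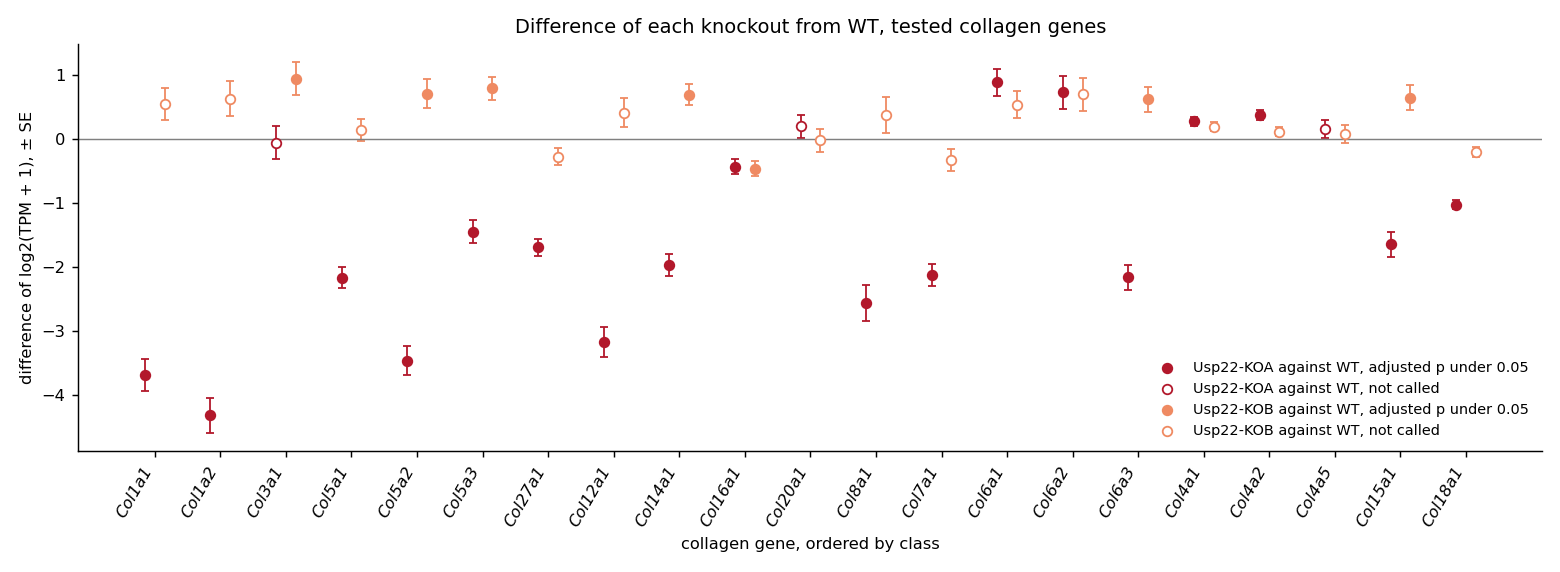
Difference of log2(TPM + 1) from WT, with SE, for the 21 tested collagen genes ordered by class, in Usp22-KOA (dark red) and Usp22-KOB (orange), n = 3 samples a group; filled points have an adjusted p under 0.05. Usp22-KOA lies far below 0 for Col1a2 (-4.32) and Col1a1 (-3.69) and above 0 for Col6a1 (0.89), while the points of Usp22-KOB lie between -0.46 for Col16a1 and 0.95 for Col3a1. Both knockouts are set against the same 3 WT samples.

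Among the fibrillar collagens, 6 of the 7 tested fell in Usp22-KOA and Col3a1 did not pass. Col1a1, the main chain of collagen I (chromosome 11, 94936224 to 94953042, protein coding, GENCODE M21 on GRCm38), stood at 19.5, 15.6 and 14.2 TPM in Usp22-KOA, at 386, 349 and 256 TPM in Usp22-KOB and at 182, 179 and 334 TPM in WT. The Usp22-KOA values lay far under both other groups, and those of Usp22-KOB and WT overlapped through WT 3. Usp22-KOA held 7.08% of the WT mean, a log2 difference of -3.69 ± 0.25 from WT (limma, adjusted p = 3.3e-06) and of -4.24 ± 0.25 from Usp22-KOB (2.8e-06).

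Col1a2, the partner chain of collagen I (chromosome 6, 4504814 to 4541544), stood at 9.95, 8.71 and 5.68 TPM in Usp22-KOA, at 322, 293 and 223 TPM in Usp22-KOB and at 145, 141 and 269.8 TPM in WT. Of the 21 tested collagens it had the lowest log2 difference in Usp22-KOA, at 4.38% of the WT mean (log2 -4.32 ± 0.27, limma adjusted p = 2.3e-06). In Usp22-KOB neither chain of collagen I passed against WT (log2 0.55 ± 0.25 for Col1a1, limma adjusted p = 0.114, and 0.64 ± 0.27 for Col1a2, 0.0987).

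Col3a1, whose chain alone forms collagen III, the thinner fibrils found beside collagen I in soft tissue (chromosome 1, 45311538 to 45349706), followed another pattern. It stood at 167, 178 and 151 TPM in Usp22-KOA, at 399.7, 373 and 243 TPM in Usp22-KOB and at 142, 137 and 255 TPM in WT. The Usp22-KOA values lay within the WT range, and the difference did not pass (log2 -0.05 ± 0.25, limma adjusted p = 0.878). Without WT 3 it was 0.24, with the same call. Col3a1 rose in Usp22-KOB, where 2 libraries lay above each WT library (log2 0.95 ± 0.25, limma adjusted p = 0.017), a call that ended without WT 1, WT 2, Usp22-KOB 1 or Usp22-KOB 2. Between the knockouts it was lower in Usp22-KOA (log2 -1.0 ± 0.25, 0.00919).

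The sequences before the starts of Col1a2 and Col3a1 are shown because these fibrillar genes are made together in many tissues but parted here in Usp22-KOA. They are RefSeq windows on GRCm38.p6, plus strand, 250 bases before to 50 after the annotated start, chr6:4505368-4505667 for Col1a2 and chr1:45311288-45311587 for Col3a1. The GENCODE gene Col1a2 begins upstream of its window. Capitals mark the letters CCAAT (as in a CCAAT box), GGGCGG (as in a GC box) and TATAAA (as in a TATA box) on either strand, at any position.
Col1a2: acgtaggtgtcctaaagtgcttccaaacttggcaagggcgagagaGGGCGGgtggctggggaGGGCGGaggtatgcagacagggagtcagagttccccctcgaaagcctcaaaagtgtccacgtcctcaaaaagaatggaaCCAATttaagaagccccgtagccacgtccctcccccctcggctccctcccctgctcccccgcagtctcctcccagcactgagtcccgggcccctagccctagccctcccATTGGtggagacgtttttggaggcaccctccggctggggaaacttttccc
Col3a1: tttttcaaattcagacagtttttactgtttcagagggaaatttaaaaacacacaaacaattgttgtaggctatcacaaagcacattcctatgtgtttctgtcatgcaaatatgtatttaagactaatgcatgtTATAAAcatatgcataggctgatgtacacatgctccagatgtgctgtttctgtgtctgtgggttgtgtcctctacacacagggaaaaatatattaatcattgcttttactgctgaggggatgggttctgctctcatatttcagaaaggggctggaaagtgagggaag
The Col1a2 window held 2 CCAAT and 2 GGGCGG matches and was 61.0% G or C. The Col3a1 window held 1 TATAAA match, at -117 from the annotated start, no match to the other motifs and was 37.7% G or C. Over the 32851 RefSeq windows of mouse genes 37.4% held CCAAT, 35.7% GGGCGG and 13.6% TATAAA. The 38 windows of 35 collagen genes held them in 13, 23 and 5 cases. These matches describe the letters only, and whether any of them works as a promoter element was not tested.

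Collagen V, a minor collagen that is built into the fibrils of collagen I and limits their width, fell in Usp22-KOA in each of its 3 chains. Col5a2 (chromosome 1, 45374321 to 45503282), the neighbour of Col3a1 at 24.6 kb on the other strand, stood at 1.21, 1.23 and 0.704 TPM in Usp22-KOA, at 40.1, 39.2 and 28.8 TPM in Usp22-KOB and at 19.1, 16.5 and 30.9 TPM in WT. These neighbouring genes thus differed in Usp22-KOA, where Col5a2 held 4.73% of the WT mean and Col3a1 92.8%. The log2 difference of Col5a2 was -3.46 ± 0.23 (limma adjusted p = 2.9e-06). Its rise in Usp22-KOB (log2 0.71 ± 0.23, 0.0375) ended with the replicate number as a block (0.0618), under 5 other settings and without WT 1, WT 2, Usp22-KOB 1 or Usp22-KOB 2.

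Col5a1, the chain present in most collagen V (chromosome 2, 27886425 to 28039514), stood at 4.57, 5.296 and 4.696 TPM in Usp22-KOA, at 31.4, 28.2 and 24.8 TPM in Usp22-KOB and at 22.3, 21.2 and 33.8 TPM in WT. Col5a3, a chain of more limited distribution (chromosome 9, 20770050 to 20815067), stood at 1.72, 1.68 and 2.16 TPM in Usp22-KOA, at 14.7, 14.03 and 9.36 TPM in Usp22-KOB and at 6.49, 5.68 and 8.29 TPM in WT. Both lay lower in each Usp22-KOA library than in any other library, and Col5a3 lay higher in each Usp22-KOB library than in any WT library. The log2 differences of Usp22-KOA from WT were -2.16 ± 0.17 for Col5a1 and -1.45 ± 0.18 for Col5a3 (limma adjusted p = 6.9e-06 and 1.5e-04). Col5a3 rose in Usp22-KOB by 0.80 ± 0.18 (0.00906).

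Col27a1, a fibrillar collagen known from cartilage (chromosome 4, 63214004 to 63334991), stood at 6.701, 6.47 and 4.98 TPM in Usp22-KOA, at 15.8, 16.6 and 21.1 TPM in Usp22-KOB and at 22.2, 22.6 and 19.99 TPM in WT. In contrast to Col1a1 it did not stand out in WT 3. It fell in Usp22-KOA (log2 -1.69 ± 0.13, limma adjusted p = 7.6e-06) and did not pass in Usp22-KOB (0.138).

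**Figure D2:**
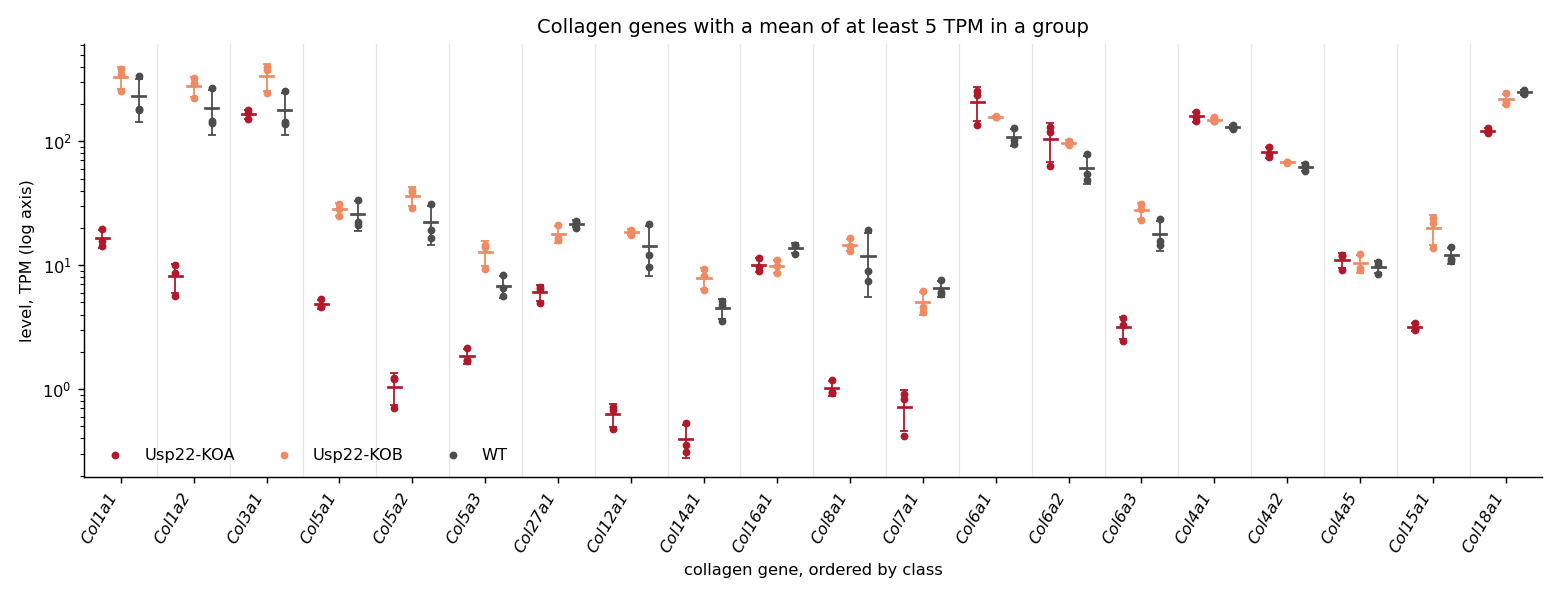
Level of each collagen gene with a mean of at least 5 TPM in a group, in TPM on a log axis, by class from fibrillar (left) to multiplexin (right). Points are samples, short lines group means and bars the SD (n = 3), with Usp22-KOA, Usp22-KOB and WT from left to right; Usp22-KOA lies lowest for Col1a1 at 16.4 ± 2.74 TPM, whereas its Col3a1, at 165 ± 13.6 TPM, lies beside WT at 178 ± 66.6 TPM.

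Fibril-associated collagens coat the fibrils and link them to other matrix. Of the 4 tested, 3 fell in Usp22-KOA. Col12a1, found along collagen I fibrils under load (chromosome 9, 79598991 to 79718831), stood at 0.721, 0.68 and 0.481 TPM in Usp22-KOA, at 19.3, 17.5 and 18.7 TPM in Usp22-KOB and at 12.01, 9.69 and 21.4 TPM in WT. Col14a1, its relative in fibril packing (chromosome 15, 55307750 to 55520803), stood at 0.352, 0.534 and 0.312 TPM in Usp22-KOA, at 9.299, 8.12 and 6.36 TPM in Usp22-KOB and at 3.57, 4.802 and 5.11 TPM in WT. Both were lowest in the 3 Usp22-KOA libraries, and for Col14a1 each Usp22-KOB library also lay above each WT library. The log2 differences of Usp22-KOA from WT were -3.17 ± 0.23 for Col12a1 and -1.97 ± 0.17 for Col14a1 (limma adjusted p = 5.3e-06 and 1.3e-05). In Usp22-KOB Col14a1 rose by 0.70 ± 0.17 (0.0109) and Col12a1 did not pass (0.188).

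Col16a1, a fibril-associated collagen found near fibrils and microfibrils (chromosome 4, 130047840 to 130099283), was the one tested collagen called lower in each knockout. It stood at 9.73, 9.002 and 11.5 TPM in Usp22-KOA, at 10.98, 9.81 and 8.64 TPM in Usp22-KOB and at 12.4, 14.6 and 14.6 TPM in WT, and the WT values lay above all 6 knockout values. The log2 differences were small, -0.43 ± 0.12 in Usp22-KOA and -0.46 ± 0.12 in Usp22-KOB (limma adjusted p = 0.013 and 0.0149). The call in Usp22-KOA ended without Usp22-KOA 2, and that in Usp22-KOB without WT 2 or WT 3. Col20a1, another member of the class, ranged over 0.99 to 1.54 TPM in Usp22-KOA, 0.805 to 1.202 TPM in Usp22-KOB and 0.791 to 1.38 TPM in WT and passed in no comparison.

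Col8a1, of the short-chain collagens that form networks under endothelium and in vessel walls (chromosome 16, 57624258 to 57754737), stood at 1.19, 0.931 and 0.943 TPM in Usp22-KOA, at 16.4, 14.2 and 13.1 TPM in Usp22-KOB and at 8.997, 7.43 and 19.1 TPM in WT. WT 3 again stood highest of the WT libraries. Col7a1, the chain of the anchoring fibrils that tie an epithelium to its stroma (chromosome 9, 108953586 to 108984875), stood at 0.907, 0.828 and 0.421 TPM in Usp22-KOA, at 4.62, 4.21 and 6.195 TPM in Usp22-KOB and at 6.12, 5.8 and 7.54 TPM in WT. Both fell in Usp22-KOA, with log2 differences of -2.56 ± 0.28 for Col8a1 and -2.13 ± 0.17 for Col7a1 (limma adjusted p = 5.6e-05 and 1.0e-05), and neither passed in Usp22-KOB (0.314 and 0.176).

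Collagen VI, whose main form joins the chains of Col6a1, Col6a2 and Col6a3, did not move as a unit in Usp22-KOA. Col6a1 (chromosome 10, 76708792 to 76726168) stood at 235, 254 and 136 TPM in Usp22-KOA, at 156, 156 and 159.6 TPM in Usp22-KOB and at 103, 95.3 and 128 TPM in WT. Each knockout library lay above each WT library, with Usp22-KOA 3 well under the other Usp22-KOA libraries. Col6a2, 85.2 kb away on the same strand (chromosome 10, 76595762 to 76623630), stood at 119, 129 and 63.5 TPM in Usp22-KOA, at 99.1, 100.4 and 92.7 TPM in Usp22-KOB and at 54.7, 48.6 and 78.3 TPM in WT. Col6a1 rose in Usp22-KOA by 0.89 ± 0.21 on the log2 scale (limma adjusted p = 0.0056). Col6a2 rose by 0.73 ± 0.26 (0.0366), a call close to the threshold that ended with the replicate block (0.054), when only Usp22-KOA and WT were fitted (0.08), with no filter, after quantile normalization or median-of-ratios scaling, and without WT 1, WT 2, Usp22-KOA 1, Usp22-KOA 2, Usp22-KOB 1 or Usp22-KOB 2. Its values in Usp22-KOA and WT overlapped.

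Col6a3, the largest chain of collagen VI (chromosome 1, 90765923 to 90843971), moved the other way in Usp22-KOA. It stood at 3.72, 3.32 and 2.46 TPM in Usp22-KOA, at 31.2, 28.5 and 23.3 TPM in Usp22-KOB and at 15.7, 14.5 and 23.4 TPM in WT. Each Usp22-KOA value lay under each of the others, at 17.7% of the WT mean (log2 -2.16 ± 0.19, limma adjusted p = 1.6e-05). In Usp22-KOB Col6a3 rose by 0.62 ± 0.19 (0.0308), a call that ended without WT 1, WT 2, Usp22-KOB 1 or Usp22-KOB 2.

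The basement membrane chains Col4a1 and Col4a2, which join in the common form of collagen IV, rose slightly in Usp22-KOA. Col4a1 (chromosome 8, 11198423 to 11312826) stood at 156, 174 and 145 TPM in Usp22-KOA, at 144, 147 and 156 TPM in Usp22-KOB and at 129, 125 and 136 TPM in WT. Col4a2 (chromosome 8, 11312805 to 11449287) stood at 79.4, 90.2 and 74.6 TPM in Usp22-KOA, at 66.5, 68.6 and 67.5 TPM in Usp22-KOB and at 62.7, 57.6 and 65.9 TPM in WT. For both genes the WT libraries were the lowest 3 of the 9. In Usp22-KOA the log2 differences were 0.28 ± 0.069 for Col4a1 and 0.38 ± 0.077 for Col4a2 (limma adjusted p = 0.00717 and 0.00236), and that of Col4a1 did not pass after quantile normalization. In Usp22-KOB neither passed (0.0513 and 0.247). Between the knockouts Col4a2 was the higher in Usp22-KOA, by 0.26 ± 0.077 (0.0191), the 1 such call among the collagens, and this call ended after quantile normalization and without Usp22-KOA 2 or Usp22-KOB 1.

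Col4a1 and Col4a2 are transcribed away from each other from a shared promoter region on chromosome 8. It is shown because both genes rose in Usp22-KOA against WT, though only Col4a2 was called between the knockouts. The annotated starts of both genes lie 21 bases apart and the genes share 22 bases, so reads there cannot be told apart if strand was not used in the counting. The RefSeq windows on GRCm38.p6 are chr8:11312777-11313076 on the minus strand for Col4a1 and chr8:11312555-11312854 on the plus strand for Col4a2, with 78 bases in common. Capitals mark the same motifs as before.
Col4a1: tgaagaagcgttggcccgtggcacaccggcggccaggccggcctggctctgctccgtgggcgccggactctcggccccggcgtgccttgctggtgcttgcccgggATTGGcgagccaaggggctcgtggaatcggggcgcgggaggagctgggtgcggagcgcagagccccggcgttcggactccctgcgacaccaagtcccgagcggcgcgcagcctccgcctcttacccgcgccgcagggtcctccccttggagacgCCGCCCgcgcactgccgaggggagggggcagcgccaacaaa
Col4a2: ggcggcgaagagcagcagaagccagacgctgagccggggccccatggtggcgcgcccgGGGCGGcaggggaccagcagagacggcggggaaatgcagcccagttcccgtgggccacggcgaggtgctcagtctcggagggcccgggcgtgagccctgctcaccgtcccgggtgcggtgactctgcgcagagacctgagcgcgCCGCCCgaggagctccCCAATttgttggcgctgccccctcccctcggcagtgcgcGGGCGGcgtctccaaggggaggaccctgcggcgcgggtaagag
The Col4a1 window held 1 CCAAT and 1 GGGCGG match and was 74.0% G or C. The Col4a2 window held 1 CCAAT and 3 GGGCGG matches and was 73.7% G or C, and neither held TATAAA.

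Col4a5, a collagen IV chain of particular basement membranes such as that of the kidney glomerulus (chromosome X, 141475385 to 141689234), passed in no comparison. It lay at 9.16, 11.9 and 11.99 TPM in Usp22-KOA, at 9.16, 9.54 and 12.4 TPM in Usp22-KOB and at 9.96, 8.503 and 10.6 TPM in WT. The 3 groups overlapped throughout.

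The multiplexins are basement membrane collagens that carry sugar side chains and release fragments from their ends, endostatin in the case of Col18a1. Col18a1 (chromosome 10, 77052178 to 77166548) was by mean the most abundant collagen transcript in WT, though not in WT 3. It stood at 121, 116 and 129 TPM in Usp22-KOA, at 201, 208 and 243 TPM in Usp22-KOB and at 259.9, 246 and 239 TPM in WT. All Usp22-KOA values lay under all others, at 49.1% of the WT mean (log2 -1.02 ± 0.076, limma adjusted p = 6.0e-06), and Usp22-KOB did not pass (0.0746). Col15a1 (chromosome 4, 47208161 to 47313167) stood at 3.43, 3.03 and 3.002 TPM in Usp22-KOA, at 24.2, 21.9 and 13.7 TPM in Usp22-KOB and at 11.3, 10.8 and 14.1 TPM in WT. It fell in Usp22-KOA (log2 -1.65 ± 0.19, limma adjusted p = 8.6e-05) and rose in Usp22-KOB by 0.65 ± 0.19 (0.0257), a rise that ended without WT 1, WT 2, Usp22-KOB 1 or Usp22-KOB 2 and when only Usp22-KOB and WT were fitted.

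The 23 collagen genes that were not tested were low in each library, with a highest single value of 1.59 TPM. Col9a1 was listed at 0 in 9 of 9 libraries, and 13 of the 23 were listed at 0 in at least 1 library. When all genes with any value above 0 were fitted, 22 of the 23 could be tested. In that fit 10 were lower and 1 higher in Usp22-KOA, and 5 were lower and 2 higher in Usp22-KOB, against WT. Over all 20067 genes of that fit 42.9% were called in Usp22-KOA and 26.4% in Usp22-KOB, so the 11 and 7 calls of 22 are not far from that background.

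Several of these low genes are cartilage or specialised basement membrane collagens. The collagen IV chains Col4a3, Col4a4 and Col4a6 were lower in each knockout: Col4a6 lay at 0.0524, 0 and 0.0549 TPM in Usp22-KOA, at 0.0493, 0.0141 and 0.0278 TPM in Usp22-KOB and at 0.36, 0.299 and 0.445 TPM in WT. Each knockout value lay under each WT value, and in the fit with no filter limma's adjusted p for Col4a6 was 3.1e-04 for Usp22-KOA and 8.3e-04 for Usp22-KOB. Col11a2, a chain of the cartilage collagen XI, was the 1 low gene higher in Usp22-KOA, at 1.24, 1.06 and 1.19 TPM, against 0.589, 0.515 and 0.538 TPM in Usp22-KOB and 0.451, 0.596 and 0.517 TPM in WT (log2 0.51 ± 0.071 from WT, 5.5e-04). Col6a5, a collagen VI chain that can take the place of Col6a3, lay at 0.383, 0.368 and 0.245 TPM in Usp22-KOB, against 0, 0.0176 and 0.0149 TPM in WT, and at 0.0185, 0 and 0 TPM in Usp22-KOA (Usp22-KOB from WT, log2 0.40 ± 0.048, 7.3e-04). With the depth unknown, the number of reads behind such levels is unknown too.

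Among the transmembrane collagens, Col23a1 lay at 0.0155, 0.0598 and 0.0649 TPM in Usp22-KOA, at 1.33, 1.37 and 1.14 TPM in Usp22-KOB and at 0.508, 0.339 and 0.977 TPM in WT, and was called lower in Usp22-KOA and higher in Usp22-KOB in that fit (0.00639 and 0.0216). Col13a1 lay at 0, 0 and 0.0978 TPM in Usp22-KOA, at 0.479, 0.836 and 0.343 TPM in Usp22-KOB and at 1.42, 0.631 and 1.07 TPM in WT. Col13a1 was called lower in Usp22-KOA (0.00138). Col17a1, the hemidesmosome collagen of epithelia, reached at most 0.195 TPM in any library and Col25a1 at most 0.0405 TPM, and neither was called. Col10a1, Col11a1, Col24a1, Col26a1 and Col8a2 were also lower in Usp22-KOA in that fit, with limma adjusted p from 0.00199 (Col11a1) to 0.02 (Col26a1). Of these Col10a1 and Col26a1 were lower in Usp22-KOB too (0.0287 and 0.0489). Col6a6 lay at 0.127, 0.132 and 0.052 TPM in Usp22-KOB against 0.0129, 0.0432 and 0 TPM in WT and was listed at 0 in Usp22-KOA. Col2a1, Col6a4, Col9a2, Col9a3, Col19a1, Col22a1 and Col28a1 were called in neither knockout against WT.

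Ratios between chains show how far the chains of 1 collagen kept their balance within a library. The ratio of Col1a1 to Col1a2 in TPM was 1.96, 1.79 and 2.497 in Usp22-KOA, 1.2, 1.19 and 1.15 in Usp22-KOB and 1.26, 1.27 and 1.24 in WT, so WT 3 kept the ratio of its group although both of its chains stood high. The ratio of Col4a1 to Col4a2 was 1.97, 1.92 and 1.95 in Usp22-KOA, 2.17, 2.14 and 2.31 in Usp22-KOB and 2.05, 2.17 and 2.06 in WT. Of the 5 ratios computed, its group means lay closest together, although within WT it varied more than the ratio of Col1a1 to Col1a2.

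The ratio of Col5a2 to Col5a1 was 0.265, 0.232 and 0.15 in Usp22-KOA, 1.28, 1.39 and 1.16 in Usp22-KOB and 0.856, 0.779 and 0.915 in WT, so Col5a2 was the scarcer chain of the pair by far in Usp22-KOA and the more abundant in Usp22-KOB. The ratio of Col6a3 to Col6a1 averaged 0.0156 ± 0.0025 in Usp22-KOA, 0.176 ± 0.0277 in Usp22-KOB and 0.163 ± 0.0177 in WT (SD, n = 3 each). The ratio of Col3a1 to Col1a1 averaged 10.2 ± 1.44 in Usp22-KOA, 1.02 ± 0.0621 in Usp22-KOB and 0.77 ± 0.0095 in WT. For all 5 ratios the 3 Usp22-KOA values lay apart from all other values. An exact two-sided permutation test of 3 against 3 cannot go below p = 0.1, which each ratio reached for Usp22-KOA against WT. For both knockouts against WT, where 84 splits allow p = 0.0119, the ratio of Col3a1 to Col1a1 gave exact p = 0.0238 (log2 difference 2.06), or 0.15 after Benjamini-Hochberg adjustment over the 24 comparisons made of the ratios and the summed level.

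**Figure D3:**
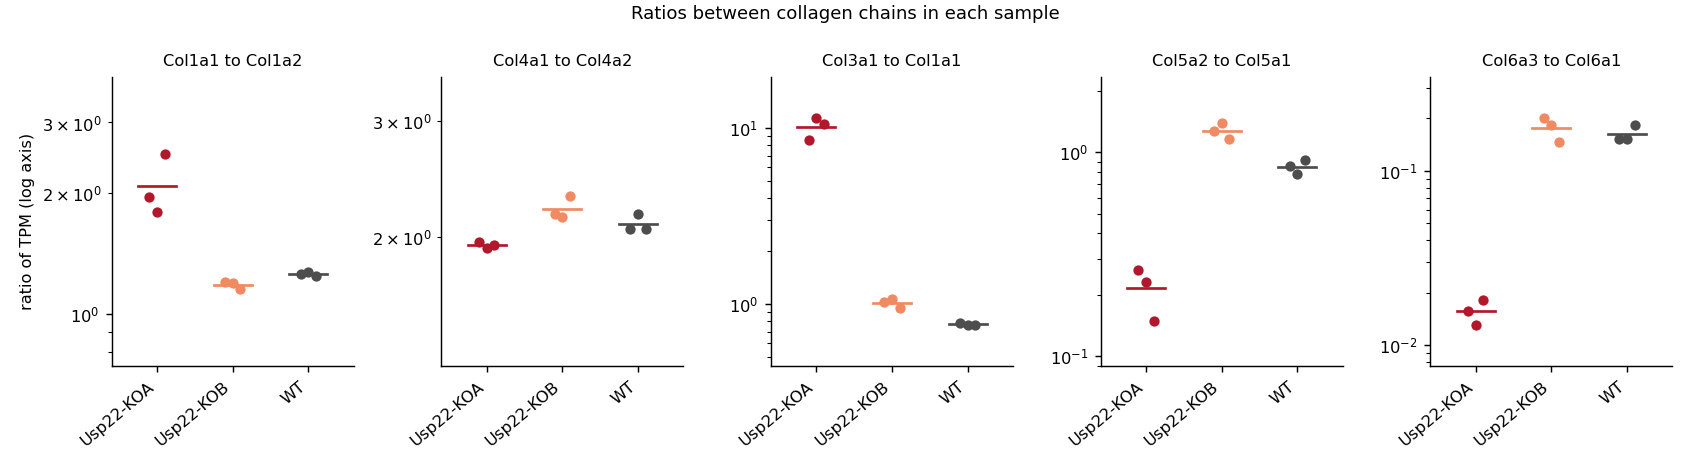
Ratio of the TPM of 2 collagen chains in each sample, on a log axis, for 5 pairs of chains, with the group mean as a line (n = 3). In Usp22-KOA the ratio of Col3a1 to Col1a1 averages 10.2 ± 1.44 against 0.77 ± 0.0095 in WT, and that of Col6a3 to Col6a1 averages 0.0156 ± 0.0025 against 0.163 ± 0.0177, while that of Col4a1 to Col4a2 averages 1.95 ± 0.0217 against 2.09 ± 0.0657.

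The summed level of the 44 collagens stood at 956, 1015 and 767 TPM in Usp22-KOA, at 2009, 1914 and 1635 TPM in Usp22-KOB and at 1237, 1178 and 1724 TPM in WT. The Usp22-KOA libraries lay under all others and Usp22-KOB overlapped WT through WT 3 (exact two-sided permutation p = 0.1 for Usp22-KOA against WT, the smallest that 3 against 3 allow, and 0.2 for Usp22-KOB). The fibrillar class made up 22.6% of the sum in Usp22-KOA, 55.9% in Usp22-KOB and 47.9% in WT. Collagen VI made up 33.98%, 15.4% and 13.6% in Usp22-KOA, Usp22-KOB and WT, and collagen IV 27.7% in Usp22-KOA, 12.4% in Usp22-KOB and 15.00% in WT. By group mean the most abundant collagen transcript was Col6a1 in Usp22-KOA, Col3a1 in Usp22-KOB and Col18a1 in WT. In Usp22-KOA Col6a1, Col3a1 and Col4a1 overlapped in their ranges (136 to 254, 151 to 178 and 145 to 174 TPM). In Usp22-KOB Col1a1, Col1a2 and Col18a1 (256 to 386, 223 to 322 and 200.7 to 243.4 TPM) overlapped with Col3a1 (242.96 to 399.7 TPM). In WT Col1a1, Col1a2 and Col3a1 (179 to 334, 141 to 269.8 and 137 to 255 TPM) overlapped with Col18a1 (239 to 259.9 TPM), and all of them exceeded it in WT 3. The order at the top is thus not fixed beyond the spread.

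Genes that fold, trim and crosslink collagen were read from a list of 33, of which 29 were tested. In Usp22-KOA 11 were lower and 9 higher than in WT, in Usp22-KOB 3 were lower and 11 higher, and in Usp22-KOA against Usp22-KOB 13 were lower and 5 higher. Over all tested genes 56.3% were called in Usp22-KOA (26.9% lower and 29.4% higher) and 37.1% in Usp22-KOB (18.4% lower and 18.7% higher). Between the knockouts 51.7% were called (24.2% lower and 27.5% higher). The list's median log2 difference was -0.10 in Usp22-KOA, against 0.019 over all tested genes, and 0.27 in Usp22-KOB, against -0.0075. The list held calls in both directions in each knockout, with more higher than lower in Usp22-KOB.

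Serpinh1, the chaperone HSP47 that binds folded procollagen in the endoplasmic reticulum, stood at 13.5, 15.02 and 13.4 TPM in Usp22-KOA, at 230.0, 236 and 236 TPM in Usp22-KOB and at 115, 124 and 163 TPM in WT. It fell in Usp22-KOA (log2 -3.16 ± 0.12, limma adjusted p = 1.3e-07) and rose in Usp22-KOB by 0.82 ± 0.12 (8.2e-04). Plod2, a lysyl hydroxylase whose products form stable crosslinks, stood at 3.18, 3.33 and 2.86 TPM in Usp22-KOA, at 12.99, 14.2 and 14.1 TPM in Usp22-KOB and at 12.8, 12.2 and 14.4 TPM in WT, and fell in Usp22-KOA (-1.78, limma adjusted p = 6.8e-07). Creb3l1, a transcription factor known to drive Col1a1 in bone, fell in both knockouts (log2 -2.12 ± 0.13 in Usp22-KOA and -0.60 ± 0.13 in Usp22-KOB, limma adjusted p = 1.7e-06 and 0.00659). Crtap, a part of the prolyl hydroxylation complex that modifies fibrillar chains, rose in each knockout (limma adjusted p = 5.2e-07 in Usp22-KOA and 0.00255 in Usp22-KOB). It averaged 118 ± 3.93 TPM in Usp22-KOA, 72.6 ± 1.82 TPM in Usp22-KOB and 60.3 ± 1.18 TPM in WT (SD, n = 3 each).

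Among the genes of propeptide cleavage, Pcolce, which speeds the removal of the C-terminal propeptide, rose in Usp22-KOA. It stood at 1045, 979 and 1008 TPM in Usp22-KOA, at 382, 362 and 418 TPM in Usp22-KOB and at 367, 365 and 369.7 TPM in WT (Usp22-KOA from WT, log2 1.46 ± 0.056, limma adjusted p = 1.6e-07). Adamts2, which removes the N-terminal propeptide, fell in Usp22-KOA (-0.92, 2.5e-04) and rose in Usp22-KOB (0.69, 0.00317). Tll1, a protease of the C-terminal propeptide, fell in both (-0.63 in Usp22-KOA and -1.10 in Usp22-KOB, limma adjusted p = 0.0069 and 8.2e-04). Pcolce2 passed between the knockouts (-1.73, 0.011), with Usp22-KOA 3 at 2.45 TPM against 12.02 and 13.1 TPM in the other Usp22-KOA libraries.

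The crosslinking oxidases divided. Lox stood at 0.56, 0.461 and 0.542 TPM in Usp22-KOA, at 15.9, 15.9 and 10.6 TPM in Usp22-KOB and at 6.59, 5.62 and 11.97 TPM in WT. Loxl1 stood at 0.957, 0.897 and 0.602 TPM in Usp22-KOA, at 21.5, 17.5 and 13.6 TPM in Usp22-KOB and at 8.21, 7.54 and 13.8 TPM in WT. Both were lowest in Usp22-KOA (log2 -2.51 ± 0.25 for Lox and -2.54 ± 0.23 for Loxl1 from WT, limma adjusted p = 3.1e-05 and 1.7e-05). Lox and Loxl1 averaged under 1 TPM in Usp22-KOA and passed the filter through the other groups. Their falls, counted above among the lower maturation genes, are thus partly set by it. Loxl4 rose in both knockouts, with 28.96 ± 0.907 TPM in Usp22-KOA, 25.9 ± 3.61 TPM in Usp22-KOB and, in WT, 15.4 ± 0.236 TPM (limma adjusted p = 4.4e-05 and 4.9e-04). Loxl3 passed only in the test between the knockouts (-1.07, 0.00698).

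Of 10 small leucine-rich proteoglycans, which sit on fibrils and set their spacing, 7 were tested and these fell in Usp22-KOA, where 26.9% of all tested genes were lower. Fmod, Ogn and Aspn averaged under 1 TPM in Usp22-KOA and passed the filter through the other groups, so their fall is partly set by it. The median of their log2 differences from WT was -1.63 in Usp22-KOA, against 0.019 over all tested genes, and 3 of the 7 rose in Usp22-KOB. Bgn averaged 8.98 ± 1.496 TPM in Usp22-KOA, 125 ± 25.03 TPM in Usp22-KOB and 82.5 ± 28.9 TPM in WT (SD, n = 3 each), and WT 3, at 115.9 TPM, stood high here too. Dcn, known to bind collagen I, averaged 3.76 ± 1.04 TPM in Usp22-KOA, 39.2 ± 8.42 TPM in Usp22-KOB and 13.7 ± 2.47 TPM in WT. The log2 differences of Usp22-KOA from WT were -3.02 for Bgn, -1.63 for Dcn, -2.20 for Lum and -2.0 for Aspn (limma adjusted p at most 2.3e-04).

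Of the 7 tested collagen receptors, 1 rose and 2 fell in Usp22-KOA, and 2 rose and 1 fell in Usp22-KOB, shares below and near the 56.3% and 37.1% called over all tested genes. Itga1, an integrin chain that binds collagen IV and I, averaged 81.1 ± 11.9 TPM in Usp22-KOA, 34.6 ± 3.803 TPM in Usp22-KOB and 37.2 ± 3.37 TPM in WT, and rose in Usp22-KOA (log2 1.10, limma adjusted p = 6.5e-05). Itga2, its relative with a preference for collagen I, and Mrc2, an endocytic collagen receptor, fell in Usp22-KOA (-0.57 and -1.65, limma adjusted p = 0.00442 and 3.7e-04). Ddr2, a receptor kinase for fibrillar collagen, rose in Usp22-KOB (0.59, 0.0179) at levels of at most 1.98 TPM. This call ended without WT 2, Usp22-KOB 1 or Usp22-KOB 2. Ddr2 averaged under 1 TPM in both other groups and passed the filter through Usp22-KOB, so its rise is partly set by it. Mrc2 averaged under 1 TPM in Usp22-KOA and passed through the other groups, which partly sets its fall.

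Of the 6 tested genes of collagen breakdown, 1 fell and 0 rose in Usp22-KOA, where 56.3% of all tested genes were called, and 4 rose in Usp22-KOB, where 18.7% were higher. Mmp2, a gelatinase of stroma, fell in Usp22-KOA (log2 -2.14, limma adjusted p = 5.8e-05) and rose in Usp22-KOB (0.88, 0.0174), a rise that ended without WT 1, WT 2, Usp22-KOB 1 or Usp22-KOB 2. Mmp13, a collagenase, and Ctsk, a collagen-degrading cathepsin, rose in Usp22-KOB (1.54 and 1.65, limma adjusted p = 0.00136 and 0.00379). Mmp8 rose there as well (1.13, 0.0027), at levels of at most 5.48 TPM.

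**Figure D4:**
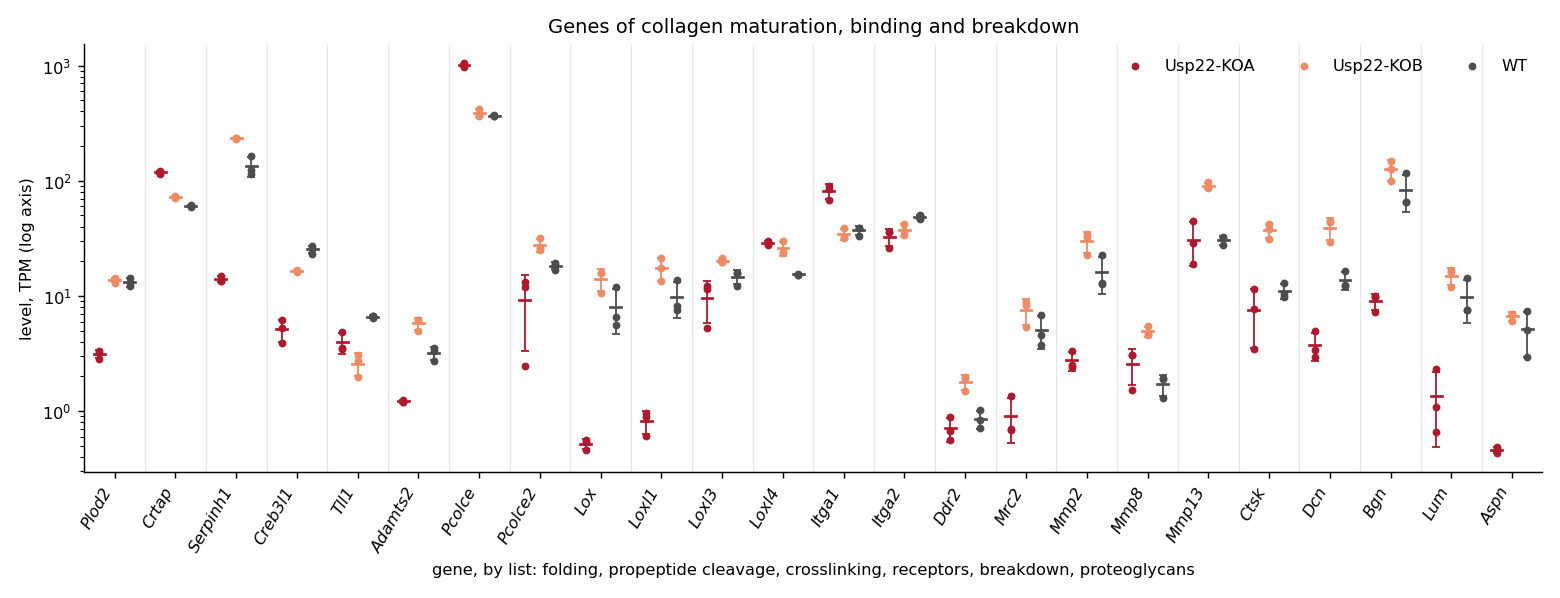
Level of 24 named genes of collagen folding, propeptide cleavage, crosslinking, binding, breakdown and fibril-associated proteoglycans in each sample, in TPM on a log axis, with means and SD of 3 samples, Usp22-KOA, Usp22-KOB and WT from left to right. Serpinh1 averages 13.99 ± 0.894 TPM in Usp22-KOA and 134 ± 25.8 TPM in WT, whereas Pcolce averages 1010.4 ± 32.96 TPM in Usp22-KOA and 367 ± 2.47 TPM in WT.

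Markers of other cell types also differed between the groups, and the shares called over all tested genes (26.9% lower and 29.4% higher in Usp22-KOA, 18.4% lower and 18.7% higher in Usp22-KOB) apply to each count. Of 16 fibroblast markers 15 were tested, and 9 fell and 2 rose in Usp22-KOA, while 7 rose and 1 fell in Usp22-KOB. Of the 15, 5 averaged under 1 TPM in Usp22-KOA and passed the filter through the other groups. The summed level of the list ranged over 222 to 322 TPM in Usp22-KOA, 460.4 to 538 TPM in Usp22-KOB and 439.8 to 518 TPM in WT. Fbln2 carried much of that sum, so the sum does not show how the other markers moved. On average it made up 106 of 273 TPM in Usp22-KOA, 245 of 508 TPM in Usp22-KOB and 342 of 468 TPM in WT. Tcf21 was listed at 0 in 9 of 9 libraries. The markers did not fall together: Dpt, a small protein that binds decorin and collagen, rose in Usp22-KOA to 68.9 ± 13.1 TPM, against 5.52 ± 0.755 TPM in WT (log2 3.41, limma adjusted p = 6.6e-06), whereas Fbln2, a basement membrane and elastic fibre protein, fell to 106 ± 27.4 TPM in Usp22-KOA, against 342 ± 15.5 TPM in WT (log2 -1.70, 2.1e-05). The other gene of the list that rose there was Twist2, named after its value was seen. Dcn and Lum stand in this list and in that of the proteoglycans.

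Of 9 myofibroblast and pericyte markers 6 were tested, with 5 lower in Usp22-KOA and 3 lower and 0 higher in Usp22-KOB. Of the 7 tested fibrillar collagens 3 rose in Usp22-KOB and 0 fell. The rises of Col3a1 and Col5a2 ended without WT 1, WT 2, Usp22-KOB 1 or Usp22-KOB 2. Of the 6 markers, 2 averaged under 1 TPM in Usp22-KOA. Their summed level ranged over 13.5 to 14.3 TPM in Usp22-KOA, 55.4 to 66.2 TPM in Usp22-KOB and 75.96 to 100.4 TPM in WT. Acta2, smooth muscle actin, averaged 4.66 ± 0.756, 22.7 ± 2.899 and 31.3 ± 3.14 TPM in Usp22-KOA, Usp22-KOB and WT. Of 15 endothelial markers 13 were tested and these were lower in Usp22-KOA, but 6 of them averaged under 1 TPM there and passed the filter only through the other groups. In Usp22-KOB 2 were lower and 0 higher, with summed levels of 19.2 to 28.7 TPM in Usp22-KOA, 66.04 to 95.6 TPM in Usp22-KOB and 84.01 to 113 TPM in WT. The part of these cell types in the collagen differences was not tested.

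Epithelial markers, 10 tested of 12, were lower in 8 cases and higher in 1 in Usp22-KOA, and lower in 6 and higher in 0 in Usp22-KOB, with summed levels of 6277 to 7059 TPM in Usp22-KOA, 6855 to 8384 TPM in Usp22-KOB and 7969 to 8474 TPM in WT. The keratins make up most of that sum: Cldn7, a tight junction protein named after its values were seen, averaged 10.2 ± 0.164 TPM in Usp22-KOA, 14.2 ± 2.74 TPM in Usp22-KOB and 81.1 ± 5.65 TPM in WT. The 8 mast cell markers were higher in Usp22-KOA, though Ms4a2 and Gata2 averaged under 1 TPM in both other groups and passed the filter through Usp22-KOA. Kit, at 10.3 TPM in Usp22-KOA, also lay near the filter in the other groups, at 1.32 TPM in Usp22-KOB and 0.667 TPM in WT. In Usp22-KOB 3 of the 8 markers were higher and 1, Mcpt4, was lower. In Usp22-KOA their sum ranged over 1180.1 to 2450.3 TPM, against 93.9 to 127 TPM in Usp22-KOB and 151 to 186 TPM in WT, where Mcpt4 carries most of it. Tpsb2, a mast cell tryptase, averaged 559.5 ± 205 TPM in Usp22-KOA, 26.6 ± 7.58 TPM in Usp22-KOB and 1.72 ± 0.926 TPM in WT. Usp22-KOA 3 was the lowest Usp22-KOA library for the fibroblast, myofibroblast, endothelial, mast cell and pan-leukocyte sums, as for Col6a1 and Col6a2. Pan-leukocyte markers, 10 tested of 10, were higher in 2 cases in Usp22-KOA and in 7 in Usp22-KOB, with sums of 500.5 to 1017, 843 to 1752 and 360.0 to 635 TPM in Usp22-KOA, Usp22-KOB and WT. Skeletal muscle markers summed to at most 8.54 TPM in any library, with 2 of 6 tested, 0 called in Usp22-KOA and 1 lower in Usp22-KOB, and of 6 adipocyte markers 3 were tested, 1 lower in Usp22-KOA and 1 higher in Usp22-KOB.

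**Figure D5:**
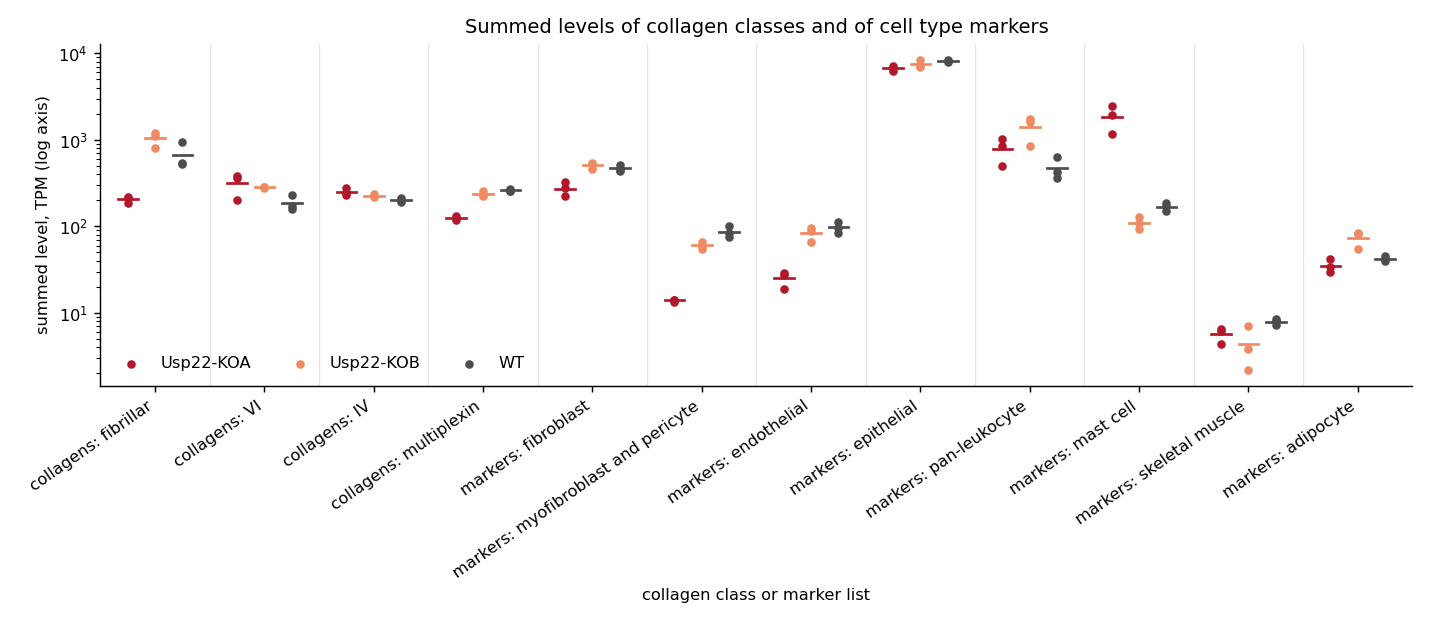
Summed TPM of 4 collagen classes and of 8 lists of cell type markers in each sample, on a log axis, with the group mean as a line (n = 3), Usp22-KOA, Usp22-KOB and WT from left to right. Fbln2 carries much of the fibroblast sum. The fibrillar sum averages 205 ± 18.00 TPM in Usp22-KOA and 673 ± 243 TPM in WT, collagen VI 316 ± 99.4 TPM in Usp22-KOA and 187 ± 37.4 TPM in WT, and the mast cell list ranges over 1180.1 to 2450.3 TPM in Usp22-KOA against 151 to 186 TPM in WT.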

How the data were processed

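The values used are TPM per gene as deposited, and they sum to 1000000 in each of the 9 libraries. Per the submitters' processing notes, the tools were Salmon and DESeq2 and the build was mm10. Which step each served, the annotation and the use of strand are not stated there. Each of the 9 columns was matched to 1 sample by its label.

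The deposited TPM were put on a log2 scale after adding a pseudocount of 1. A single limma model (lmFit, then contrasts.fit, then eBayes with trend) with 1 mean per group was run on the 13843 genes that reached a mean of 1 TPM, and p-values were adjusted over all of them. Chain ratios and the summed level were tested by exact permutation over samples. The members and gene lists were chosen with earlier results of these data known. Named genes were Usp22, every collagen gene, up to 4 members of each collagen-related list with the smallest adjusted p in any comparison, and up to 3 markers of each cell type with the highest mean level. Tested on simulated data built for the comparison of both knockouts with WT (13843 genes), the model found 92 of 100 genes shifted by a log2 difference of 1 and 68 of 100 shifted by 0.5. Of its 163 calls 3 were false. In the simulation all knockout samples shared the shift and few genes were changed, whereas 50.0% of tested genes were called for both knockouts here. The other comparisons were not simulated, so these figures do not give the rate of false calls among the reported ones. Coordinates are from GENCODE M21 (GRCm38, also called mm10), matched by symbol for 44 of 44 genes. Sequences are from RefSeq on GRCm38.p6. Versions were limma 3.58.1 in R 4.3.3, and matplotlib 3.10.9, numpy 2.4.6 and pandas 2.3.3 in Python 3.11.15. Alternatives were pseudocounts of 0.1 and 5, other filters, quantile normalization, median-of-ratios scaling, rescaled totals, limma without trend, fits of only the groups compared, a replicate block and leaving out each library.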

Additional observations from a re-analysis of the deposited data

Results flagged for a closer look

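In 15 of the 21 tested collagen genes the effect of Usp22-KOA and that of Usp22-KOB, each against WT, differed by the direct test between the knockouts (limma, Benjamini-Hochberg adjusted p under 0.05, over 3 samples each). Over all tested genes 51.7% were called in this comparison, 24.2% lower and 27.5% higher. Col7a1, Col12a1 and Col14a1, counted among the 15, averaged under 1 TPM in Usp22-KOA and passed the filter through the other groups. The log2 difference of Usp22-KOA from Usp22-KOB was -4.24 for Col1a1, -4.96 for Col1a2, -1.0 for Col3a1, -2.31 for Col5a1, -4.17 for Col5a2, -2.24 for Col5a3 and -2.79 for Col6a3. It was -1.80 for Col7a1, -2.94 for Col8a1, -3.59 for Col12a1, -2.66 for Col14a1, -2.30 for Col15a1, -0.83 for Col18a1 and -1.42 for Col27a1. In the other direction it was 0.26 for Col4a2.

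The named genes of collagen maturation, binding and breakdown that differed in the same way were, of folding, Serpinh1 (-3.97), Plod2 (-1.84), Creb3l1 (-1.53) and Crtap (0.70). Of propeptide cleavage they were Adamts2 (-1.61), Pcolce2 (-1.73), Pcolce (1.38) and Tll1 (0.46), and of crosslinking Lox (-3.29), Loxl1 (-3.33) and Loxl3 (-1.07). Of the receptors they were Mrc2 (-2.15), Ddr2 (-0.71) and Itga1 (1.20). Of breakdown they were Mmp2 (-3.02), Ctsk (-2.27), Mmp13 (-1.60) and Mmp8 (-0.76), and of the proteoglycans Bgn (-3.65), Dcn (-3.08), Lum (-2.82) and Aspn (-2.38). Each value is the log2 difference of Usp22-KOA from Usp22-KOB, where a negative value is lower in Usp22-KOA. The names were chosen by the smallest adjusted p in any comparison, this one included, so that most of them differed follows partly from the choice. Of all 29 tested maturation genes 13 were lower and 5 higher in Usp22-KOA than in Usp22-KOB, beside 24.2% and 27.5% of all tested genes. The markers of fibroblasts, endothelium and mast cells given with the results also differed between the knockouts, and their part in these differences was not tested.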

How the results depend on the processing

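Of the 57 calls of a collagen gene in a comparison, 34 held under each alternative in which the gene was fitted, and none changed direction. Of the 14 falls in Usp22-KOA, that of Col16a1 was the one that ended in such a fit. With a mean of at least 5 TPM as the filter, Col7a1 and Col14a1 were not fitted and 12 falls remained. Of 73 calls of named genes of the other lists, 21 ended under at least 1 alternative, 15 of them for both knockouts against WT, and none changed direction. With the 6 knockout samples as 1 group, the collagens called for both knockouts were 2 higher and 1 lower, and 1 maturation gene was lower. With no filter 24 collagens were lower in Usp22-KOA, 6 lower in Usp22-KOB and 2 higher in Usp22-KOA than in Usp22-KOB. Quantile normalization gave 2 lower in Usp22-KOB and 0 higher in Usp22-KOA than in Usp22-KOB, and median-of-ratios scaling 2 lower in Usp22-KOB. Leaving out 1 library gave 2 to 5 higher for both knockouts, 2 to 11 higher and 0 to 3 lower in Usp22-KOB, 0 to 2 collagens and 4 to 8 maturation genes higher in Usp22-KOA than in Usp22-KOB. Of those, 0 lower in Usp22-KOB was found without WT 2 and without WT 3, 3 without Usp22-KOB 3, and 8 maturation genes without Usp22-KOB 3.

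Of the collagen differences that did not pass, 6 changed sign and 12 passed under at least 1 alternative. Leaving out 1 library, those that changed sign ranged from -0.21 to 0.24 for Col3a1 in Usp22-KOA, -0.042 to 0.16 for Col4a5 and -0.0995 to 0.12 for Col20a1 in Usp22-KOB, and, between the knockouts, -0.16 to 0.35 for Col6a2 and -0.056 to 0.11 for Col16a1. After quantile normalization they were 0.10 for Col20a1 in Usp22-KOB and, between the knockouts, -0.041 for Col4a1 and -0.078 for Col6a2. For both knockouts against WT, leaving out 1 library gave -0.20 to 0.10 for the summed collagen level, -0.046 to 0.011 for the ratio of Col4a1 to Col4a2 (0.0026 after quantile normalization) and 1.69 to 2.41 for that of Col3a1 to Col1a1, whose unadjusted exact permutation p was 0.125 to 0.143 without any 1 Usp22-KOA or WT library, against 0.0238. The ratio of Col6a3 to Col6a1 was -3.11 in Usp22-KOA from WT and -3.19 from Usp22-KOB after quantile normalization, against -3.39 and -3.50. The causes were not tested.

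With the replicate number as a block, 14 collagens were lower and 3 higher in Usp22-KOA, and 1 lower and 5 higher in Usp22-KOB: among called collagens the block ended those of Col6a2 in Usp22-KOA and Col5a2 in Usp22-KOB. Correlations of same-numbered samples ran from -0.13 to 0.28, and those between Usp22-KOA and Usp22-KOB were 0.187, 0.077 and 0.276. Not every pair exceeded 0.1 and not every sample correlated best with its own number, so the samples are taken to share only a number. TPM keep no depth, which limits what can be said of the 23 low collagens.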
